A study of Homo sapiens with 9 samples.

Results

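Transforming growth factor beta (TGF-beta) ligands, their receptors, SMAD proteins and the ID genes were examined in taxane-resistant and sensitive MDA-MB-231 cells, an established human breast cancer line. The members are the 10 genes TGFB1, TGFB2, TGFBR1, TGFBR2, SMAD3, SMAD7, ID1, ID2, ID3 and INHBA, and every probe set that the platform annotation gave to one of them alone was used. That gave 20 probe sets of 22215 human ones, and 6 of the 10 genes had more than 1. A further probe set, 213931_at, is annotated to ID2 together with ID2B. It was counted for neither, and its mean intensity was 10.5, 9.97 and 10.5 in docetaxel-resistant, paclitaxel-resistant and sensitive cells.

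Docetaxel-resistant cells were kept in 2 nM docetaxel plus 1 µM verapamil. Paclitaxel-resistant cells were kept in 7 nM paclitaxel plus 1 µM verapamil. Sensitive cells had 1 µM verapamil alone, so all 3 groups shared verapamil, which blocks calcium channels and the drug efflux pump P-glycoprotein. Each group has 3 Affymetrix arrays, and each array holds total RNA of its own passage. Only 1 resistant line was made per drug, and the replicate spread is that among passages. Against sensitive cells each line differs both in its selection and in the drug still present, which cannot be told apart. Both drugs are taxanes, which stabilize microtubules, and they were given at different doses.

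In this pathway a TGF-beta or activin dimer brings together type II and type I serine/threonine kinase receptors, and the type I receptor phosphorylates SMAD2 and SMAD3. These enter the nucleus with SMAD4 and change transcription, while SMAD7 binds the activated receptor and limits the signal. Bone morphogenetic proteins (BMPs) act through SMAD1, SMAD5 and SMAD9, and ID1, ID2 and ID3 are among their direct targets. ID proteins hold E proteins in dimers that cannot bind DNA. In breast cancer the pathway is known to restrain growth of early tumours and to favour invasion of later ones.

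The 9 arrays had median deposited intensities from 33.8 to 44.1 and differed by 0.27 in median on the log2 scale before normalization. Arrays of 1 group correlated across probe sets, which are not independent replicates, at r = 0.970 to 0.991, and arrays of resistant cells correlated with those of sensitive cells at 0.901 to 0.959. Vimentin and keratin 18, which MDA-MB-231 cells express together, were high: VIM averaged 4682, 5223 and 8335 and KRT18 averaged 3325, 3154 and 3640 in docetaxel-resistant, paclitaxel-resistant and sensitive cells. Summed over the 8 markers listed for such cells, intensity ran from 13324 to 14157, 13427 to 14655 and 15992 to 19076 in the same order. In each resistant line 1 of these 8 was called higher and 2 lower. Of all 11963 genes 21% were called in the docetaxel-resistant and 21.6% in the paclitaxel-resistant line. The estrogen receptor gene ESR1 (39.7, 42.2 and 40.5) was far lower in all 3 groups, while XBP1, also a luminal marker, averaged 678, 731 and 528. Of 5 blood markers none was called, PTPRC was lowest (9.90, 7.80 and 9.29) and HBB highest (412, 447 and 378), and their sums ran from 582 to 650 in docetaxel-resistant, 592 to 682 in paclitaxel-resistant and 498 to 581 in sensitive arrays. Summed over 6 fibroblast markers, intensity ran from 236 to 278 in docetaxel-resistant, 229 to 273 in paclitaxel-resistant and 135 to 242 in sensitive arrays. Summed luminal breast markers ran from 846 to 976, 932 to 997 and 712 to 778, with none of 6 called, and VIM fell and EGFR rose in both lines. Of the fibroblast markers PDGFRB rose in both lines, LUM was near 0 throughout, and the part of such cells in the results was not tested.

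The bases before the transcription starts of TGFB1, TGFB2, SMAD3, SMAD7, ID1 and ID3 are shown because these 6 genes rose in at least 1 resistant line. They are the 250 bases upstream of the first start that RefSeq lists, in build GRCh38.p14, on the gene's own strand. SMAD3 has 5 listed starts and SMAD7 has 3, and their other starts are neither shown nor counted for these genes. TGFB2 lies at chr1:218345086-218345335 (plus strand), SMAD3 at chr15:67065352-67065601 (plus), ID3 at chr1:23559502-23559751 (minus), TGFB1 at chr19:41353923-41354172 (minus), SMAD7 at chr18:48950966-48951215 (minus) and ID1 at chr20:31605039-31605288 (plus). Capitals mark 2 motifs, searched on both strands: CAGAC, the core of the SMAD-binding element, and GGCGC, a GC-rich SMAD site, whose matches may overlap each other.
TGFB2: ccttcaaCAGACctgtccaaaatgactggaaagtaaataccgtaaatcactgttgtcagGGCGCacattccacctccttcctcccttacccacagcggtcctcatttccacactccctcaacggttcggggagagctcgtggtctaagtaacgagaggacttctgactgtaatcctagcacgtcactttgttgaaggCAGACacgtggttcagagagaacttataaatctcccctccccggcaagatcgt
SMAD3: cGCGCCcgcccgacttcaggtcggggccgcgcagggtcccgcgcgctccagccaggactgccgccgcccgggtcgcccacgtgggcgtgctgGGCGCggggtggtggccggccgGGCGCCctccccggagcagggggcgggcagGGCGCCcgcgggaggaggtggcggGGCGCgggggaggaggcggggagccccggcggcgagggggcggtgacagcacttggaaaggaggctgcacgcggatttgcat
ID3: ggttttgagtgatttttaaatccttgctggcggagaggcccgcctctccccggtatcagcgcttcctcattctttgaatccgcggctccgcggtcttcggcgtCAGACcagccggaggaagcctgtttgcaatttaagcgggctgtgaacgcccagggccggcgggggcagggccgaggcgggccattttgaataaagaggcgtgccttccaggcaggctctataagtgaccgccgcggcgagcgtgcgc
ID1: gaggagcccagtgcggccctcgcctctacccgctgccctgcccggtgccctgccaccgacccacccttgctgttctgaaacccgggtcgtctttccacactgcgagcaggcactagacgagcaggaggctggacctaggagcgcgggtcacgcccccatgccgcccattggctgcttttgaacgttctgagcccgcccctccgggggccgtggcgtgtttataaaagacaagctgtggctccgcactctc
TGFB1: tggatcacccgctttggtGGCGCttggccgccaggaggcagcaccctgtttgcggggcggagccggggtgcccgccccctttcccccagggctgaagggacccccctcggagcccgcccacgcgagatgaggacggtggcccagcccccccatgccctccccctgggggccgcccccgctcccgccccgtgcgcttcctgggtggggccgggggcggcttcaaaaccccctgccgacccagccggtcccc
SMAD7: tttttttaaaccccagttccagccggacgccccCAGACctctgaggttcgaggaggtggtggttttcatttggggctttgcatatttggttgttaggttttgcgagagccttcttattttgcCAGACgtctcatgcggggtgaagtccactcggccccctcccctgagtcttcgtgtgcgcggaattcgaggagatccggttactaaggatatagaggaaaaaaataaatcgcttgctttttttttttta
CAGAC stood 2 times in the TGFB2 window, at 243 and 53 bases before the start, 1 time in that of ID3, at 147 bases, and 2 times in that of SMAD7, at 217 and 128 bases. GGCGC stood 7 times in the window of SMAD3, whose GC content was 80.8%, and 1 time each in those of TGFB2 and TGFB1. Neither was found in the ID1 window. Of all 35116 windows of this length 38.0% held CAGAC and 44.5% held GGCGC. Among the first-start windows of the 10 genes, 4 and 5 held them. A match is only a match of letters, and the array data do not bear on binding.

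In the docetaxel-resistant line TGFB2, SMAD3 and ID3 rose, and no probe set of the 10 genes was called lower. The 2 TGFBR2 probe sets stood at -0.44 and -0.62, not called. Of 20 probe sets 7 were called higher with limma at an adjusted p below 0.05, and 13 were not called. Over all 22215 probe sets 17.7% were called in this comparison, made up of 9.34% higher and 8.32% lower, and the counts of the members are to be read beside these shares. The median log2 difference was 0.22 over the 20 probe sets and -0.05 over all. Genes with several probe sets weigh more in these values. With 1 probe set kept per gene, that of the highest mean, 3 of the 10 genes were called higher and 7 were not called. Of all 11963 genes 21% were called, and the median was -0.11 over the 10 genes and -0.05 over all genes. In 10 of the 20 the normalized arrays of the 2 groups did not overlap, against 34.2% of all probe sets.

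In the paclitaxel-resistant line TGFB1, TGFB2, SMAD3, SMAD7, ID1 and ID3 rose by at least 1 probe set each, and TGFBR2 fell. Here 8 of 20 probe sets were called higher, 2 lower and 10 not called, where 18.6% of all probe sets were called, made up of 9.21% higher and 9.37% lower. The 10 calls fall on 7 genes. The median log2 difference was 0.17 over the 20 and -0.03 over all, and the groups did not overlap in 12, against 32.1% of all probe sets. With 1 probe set per gene, 6 of the 10 genes were called higher, 1 lower and 3 not called, where 21.6% of all genes were called. The median was then 0.62 over the 10 genes and -0.02 over all genes. Both comparisons use the same 3 sensitive arrays, so they are not independent of each other. Intensities given below by array are as deposited, in the order of replicates 1 to 3, and differences, intervals and tests are on normalized values.

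**Figure D1:**
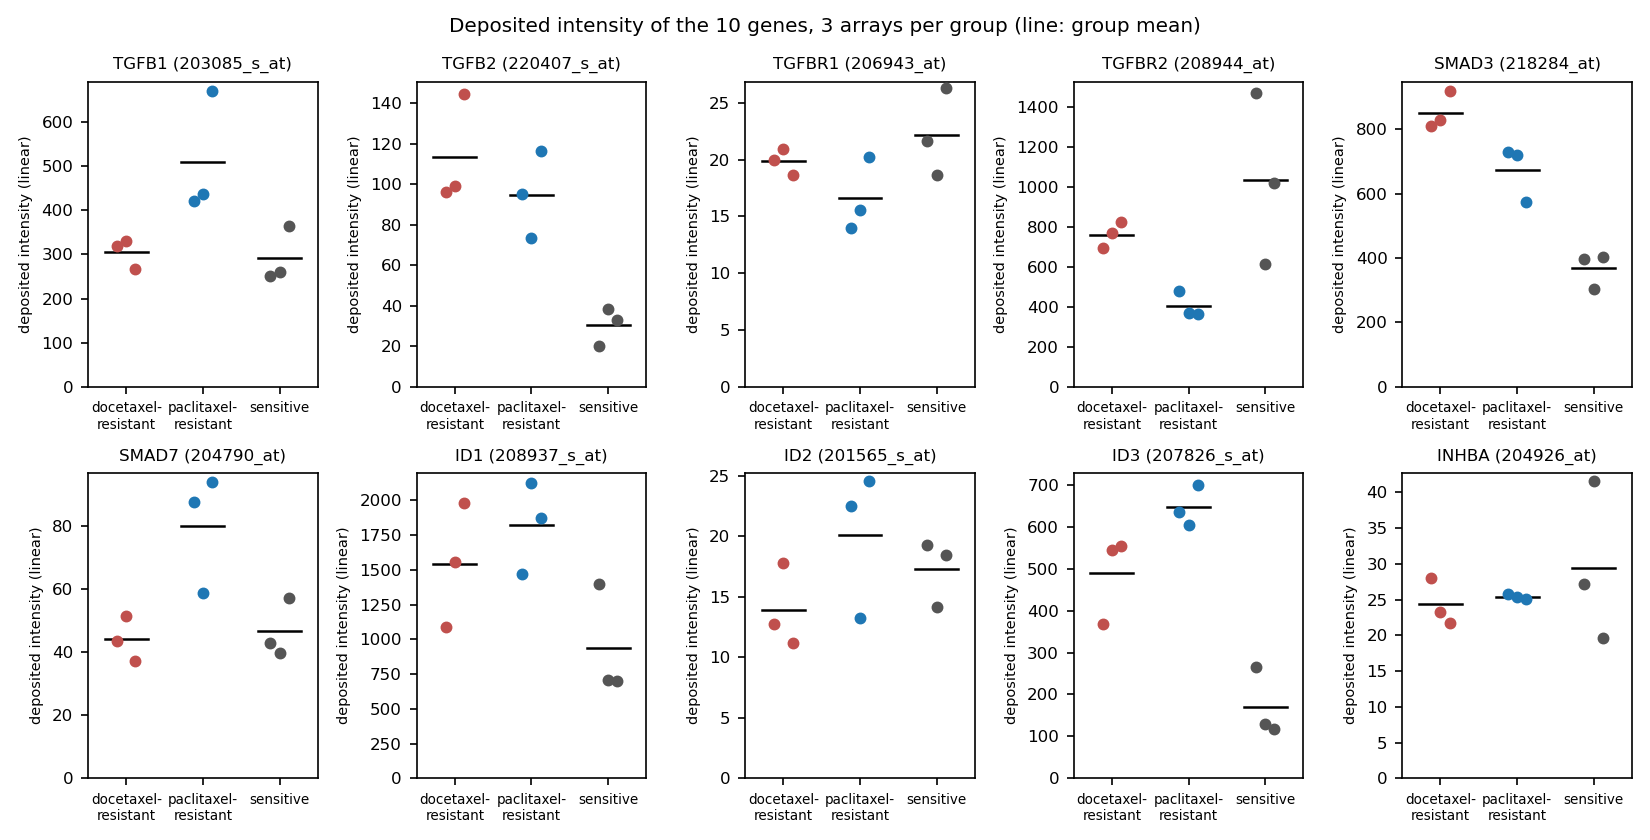
Deposited intensity on a linear axis starting at 0 for the probe set with the highest mean of each of the 10 genes, with 1 point per array and a line at the group mean. All resistant arrays lay above all sensitive ones for TGFB2, SMAD3 and ID3, and the 3 paclitaxel-resistant arrays lay lowest for TGFBR2.

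TGFB2 encodes a secreted ligand that needs the co-receptor betaglycan for high-affinity binding. Its probe set of highest mean, 220407_s_at, read 96.1, 99.0 and 144 in docetaxel-resistant cells, 95.04, 73.2 and 116 in paclitaxel-resistant cells and 20.3, 38.2 and 32.8 in sensitive cells. Every resistant array lay above every sensitive one. It rose by 1.30 ± 0.20 on the log2(intensity + 16) scale in the docetaxel-resistant line (SE, n = 3 per group, limma, adjusted p = 0.00104) and by 1.198 ± 0.20 in the paclitaxel-resistant line (adjusted p = 0.00162). Probe set 209909_s_at read 83.9, 85.9 and 136 in docetaxel-resistant, 105, 93.5 and 97.9 in paclitaxel-resistant and 15.2, 17.1 and 38.1 in sensitive cells. It rose by 1.46 ± 0.20 (adjusted p = 0.000389) and 1.58 ± 0.20 (adjusted p = 0.000222) in the docetaxel- and paclitaxel-resistant lines. Probe set 209908_s_at rose by 1.19 ± 0.24 (adjusted p = 0.00534) and 0.99 ± 0.24 (adjusted p = 0.0134). Paclitaxel-resistant replicate 1, at 30.5, was the lowest resistant array of that probe set, and its paclitaxel call ended without paclitaxel-resistant replicate 2 (0.78, adjusted p = 0.0617) and without replicate 3 (0.89, adjusted p = 0.0552). The fourth probe set, 220406_at, lay between 20.02 and 31.3 on all 9 arrays, with no order among the groups. Its differences were -0.07 (95% interval -0.37 to 0.24) and 0.0082 (-0.29 to 0.31), not called. The sensitive intensities of TGFB2 lay near the added offset of 16, so its log2 differences are understated, and with an offset of 1 that of 209909_s_at was 1.98 in docetaxel-resistant and 2.11 in paclitaxel-resistant cells.

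TGFB1 encodes the ligand that gave the family its name. Probe set 203085_s_at read 319, 330 and 267 in docetaxel-resistant cells, 422, 436 and 671 in paclitaxel-resistant cells and 252, 260 and 364 in sensitive cells. The paclitaxel-resistant arrays lay above all others, while docetaxel-resistant and sensitive arrays overlapped. It rose by 0.71 ± 0.22 in the paclitaxel-resistant line (adjusted p = 0.0454) and stood at -0.06 (interval -0.55 to 0.43) in the docetaxel-resistant line. The paclitaxel call ended with an offset of 1 (adjusted p = 0.104) and without any of 6 single arrays: docetaxel-resistant replicate 1 or 2, paclitaxel-resistant replicate 2 or 3, and sensitive replicate 1 or 2. With those left out the difference was 0.48 to 0.77, lowest without paclitaxel-resistant replicate 3, and the adjusted p 0.0522 to 0.165. With the replicate number as a block the adjusted p was 0.0617. The second probe set, 203084_at, read only 10.98 to 29.2 and went the other way in the paclitaxel-resistant line, at -0.24 (adjusted p = 0.410), not called.

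INHBA encodes the activin A subunit. Probe set 204926_at read 21.7 to 28.02 in docetaxel-resistant, 25.0 to 25.8 in paclitaxel-resistant and 19.6 to 41.6 in sensitive cells, so the groups overlapped. Its differences were -0.26 (interval -0.69 to 0.16) and -0.20 (-0.62 to 0.23) in the docetaxel- and paclitaxel-resistant lines. Probe set 210511_s_at ran from 13.3 to 20.1 over all arrays and was not called either.

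TGFBR2 encodes the type II receptor that binds the ligand first. Probe set 208944_at read 692, 769 and 821 in docetaxel-resistant cells, 477, 369 and 362 in paclitaxel-resistant cells and 1470, 615 and 1021 in sensitive cells. The paclitaxel-resistant arrays lay below all others, and sensitive replicate 2 lay below the 3 docetaxel-resistant arrays. It fell by 1.27 ± 0.19 on the log2 scale in the paclitaxel-resistant line (adjusted p = 0.000819). The second probe set, 207334_s_at, read 66.4, 80.5 and 77.4 in docetaxel-resistant, 27.1, 32.8 and 38.9 in paclitaxel-resistant and 168, 63.7 and 117 in sensitive cells. It fell by 1.41 ± 0.20 in the paclitaxel-resistant line (adjusted p = 0.000588), and the calls of both probe sets held under all 18 alternatives. In the docetaxel-resistant line they stood at -0.44 ± 0.19 (adjusted p = 0.146) and -0.62 ± 0.20 (adjusted p = 0.0569), not called. Without sensitive replicate 2 both were called lower there, at -0.67 (adjusted p = 0.0158) and -0.84 (adjusted p = 0.0113). Without sensitive replicate 1 they were smaller, at -0.23 and -0.38, and not called. In bulk RNA, fewer cells with a transcript and less transcript per cell cannot be told apart.

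TGFBR1 encodes the type I receptor. Its only probe set, 206943_at, read 19.96, 20.9 and 18.7 in docetaxel-resistant cells, 14.0, 15.6 and 20.2 in paclitaxel-resistant cells and 21.6, 18.6 and 26.3 in sensitive cells, close to the low end of the arrays. Its differences were -0.15 (interval -0.44 to 0.13) in docetaxel-resistant cells and -0.27 (-0.55 to 0.02) in paclitaxel-resistant cells, not called.

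SMAD3 carries the signal of TGF-beta and activin receptors to the nucleus and binds DNA. Its highest probe set, 218284_at, read 809, 830 and 918 in docetaxel-resistant cells, 731, 720 and 573 in paclitaxel-resistant cells and 397, 305 and 403 in sensitive cells. The 3 groups did not overlap. It rose by 1.096 ± 0.13 in the docetaxel-resistant line (adjusted p = 0.000183) and by 0.81 ± 0.13 in the paclitaxel-resistant line (adjusted p = 0.00134), and both calls held under all 18 alternatives. The other 3 probe sets separated the lines more. Probe set 205396_at read 147, 154 and 173 in docetaxel-resistant, 82.9, 80.4 and 102 in paclitaxel-resistant and 62.4, 65.2 and 80.8 in sensitive cells. It rose by 0.83 ± 0.14 in the docetaxel-resistant line (adjusted p = 0.00205) and stood at 0.20 (interval -0.11 to 0.52) in the paclitaxel-resistant line. Probe set 205398_s_at read 323, 298 and 321 in docetaxel-resistant, 187, 205 and 172 in paclitaxel-resistant and 178, 114 and 224 in sensitive cells. It rose by 0.72 ± 0.17 in the docetaxel-resistant line (adjusted p = 0.0111), a call that ended without the 2 arrays at the extremes of the median (adjusted p = 0.0732), and stood at 0.13 (-0.24 to 0.50) in the paclitaxel-resistant line. Probe set 205397_x_at stood at 0.39 (-0.0055 to 0.79) and -0.06 (-0.46 to 0.34), not called. With the mean of the 4 probe sets, SMAD3 was no longer called in the paclitaxel-resistant line (0.27, adjusted p = 0.120).

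**Figure D2:**
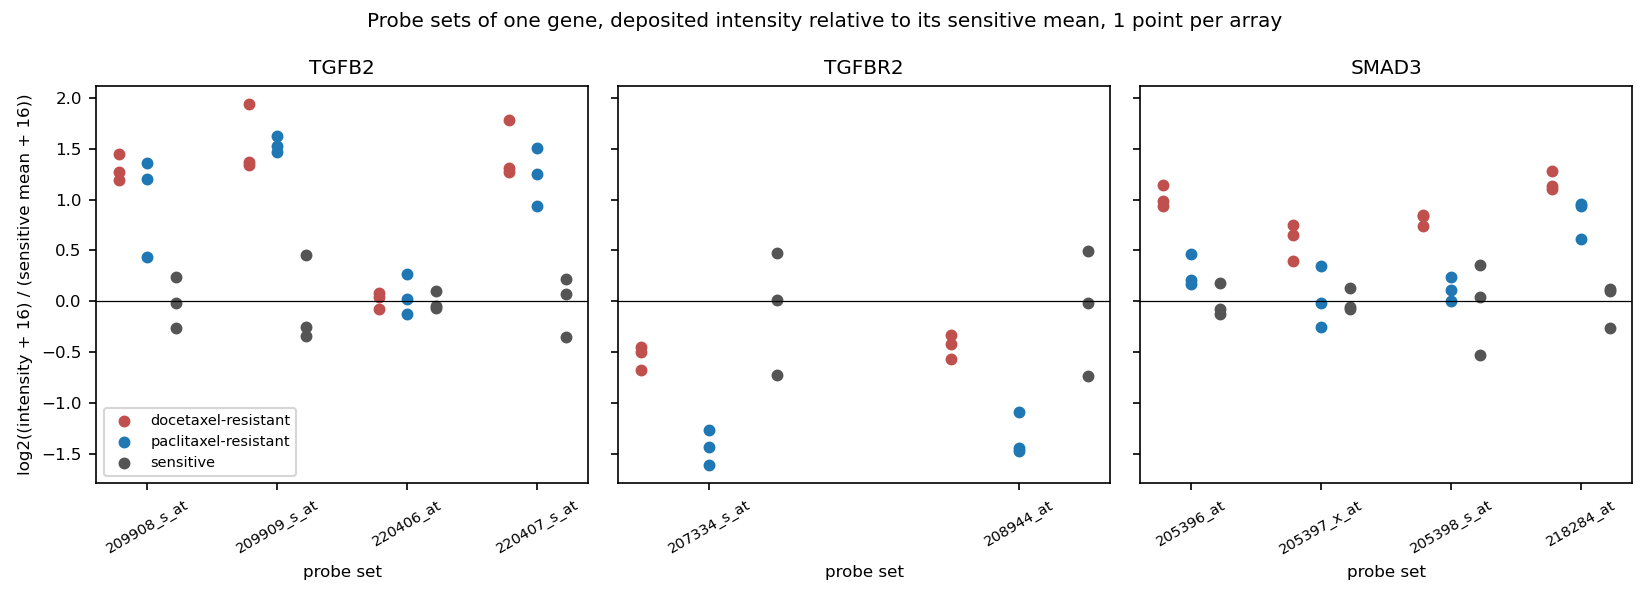
Deposited intensity of each probe set of TGFB2, TGFBR2 and SMAD3, as log2 of intensity plus 16 over the sensitive mean plus 16, with 1 point per array. For TGFB2, 3 of 4 probe sets were raised in both lines and 220406_at was not, and for SMAD3 only 218284_at was called higher in the paclitaxel-resistant line.

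SMAD7 is the inhibitory SMAD and itself a target of the pathway. Its probe set, 204790_at, read 43.4, 51.5 and 37.3 in docetaxel-resistant cells, 87.6, 58.8 and 93.9 in paclitaxel-resistant cells and 42.9, 39.6 and 57.2 in sensitive cells. The paclitaxel-resistant arrays lay above all others, by a small margin for replicate 2. It rose by 0.53 ± 0.16 in the paclitaxel-resistant line (adjusted p = 0.0418) and stood at -0.20 (interval -0.55 to 0.16) in the docetaxel-resistant line. This call held under 5 of 18 alternatives. Among single arrays only leaving out docetaxel-resistant replicate 3 or paclitaxel-resistant replicate 2 kept it. Leaving out any of the other 7 gave a difference of 0.40 to 0.60, lowest without paclitaxel-resistant replicate 3, with an adjusted p of 0.0546 to 0.151, and the replicate block gave 0.0696.

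ID3 showed the largest difference among the 20 probe sets in the paclitaxel-resistant line. Its probe set, 207826_s_at, read 369, 544 and 554 in docetaxel-resistant cells, 636, 605 and 699 in paclitaxel-resistant cells and 265, 129 and 118 in sensitive cells. The paclitaxel-resistant arrays lay highest, and sensitive replicate 1 was the highest of its group. ID3 rose by 1.38 ± 0.23 in the docetaxel-resistant line (adjusted p = 0.00144) and by 1.87 ± 0.23 in the paclitaxel-resistant line (adjusted p = 0.000183), and both calls held under all 18 alternatives.

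ID1, probe set 208937_s_at, read 1088, 1558 and 1978 in docetaxel-resistant cells, 1468, 2127 and 1873 in paclitaxel-resistant cells and 1399, 708 and 702 in sensitive cells. Sensitive replicate 1 lay within the docetaxel-resistant range and below the 3 paclitaxel-resistant arrays. ID1 rose by 0.99 ± 0.25 in the paclitaxel-resistant line (adjusted p = 0.0155). That call ended with an offset of 1 (adjusted p = 0.0519) and without paclitaxel-resistant replicate 2 (0.86, adjusted p = 0.0694), paclitaxel-resistant replicate 3 (0.95, adjusted p = 0.0529) or sensitive replicate 3 (0.81, adjusted p = 0.0699). In the docetaxel-resistant line ID1 stood at 0.67 ± 0.25 (interval 0.13 to 1.21, adjusted p = 0.0871), not called, and without sensitive replicate 1 it was called at 0.92 (adjusted p = 0.0182). Sensitive replicate 1 was thus the highest sensitive array for ID1, ID3 and TGFBR2.

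ID2 was low on every array. Probe set 201565_s_at read 11.2 to 17.8 in docetaxel-resistant, 13.2 to 24.6 in paclitaxel-resistant and 14.2 to 19.3 in sensitive cells. Its differences were -0.21 (interval -0.54 to 0.13) and 0.08 (-0.26 to 0.41). Probe set 201566_x_at had a mean below 16 in all 3 groups, the only such probe set of the 20, and was not called.

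**Figure D3:**
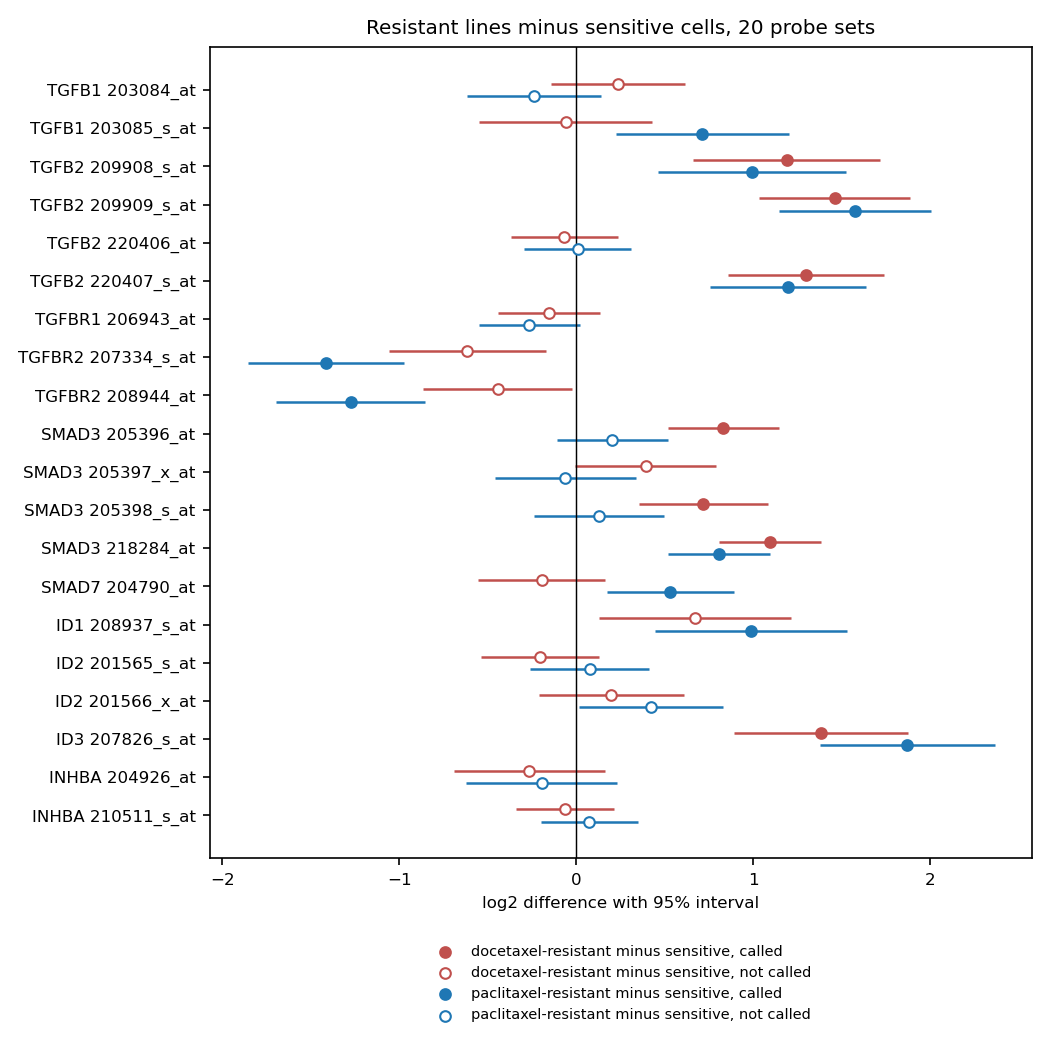
Log2 difference with its 95% interval for all 20 probe sets, docetaxel-resistant minus sensitive in red and paclitaxel-resistant minus sensitive in blue, filled where called. In the docetaxel-resistant line 7 points are filled, all above 0, and in the paclitaxel-resistant line 8 above and 2 below 0.

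The difference between the lines was tested directly, as paclitaxel-resistant minus docetaxel-resistant, with the doses of 7 nM and 2 nM not matched. None of the 20 probe sets was called by limma, where 1.6% of all probe sets were called (0.801% higher and as many lower), and 9 of the 20 had an unadjusted p under 0.05, against 12.2% of all probe sets. Other settings called up to 3 probe sets. The arrays of the lines did not overlap in 10 of the 20, against 19.3% of all probe sets. The nearest to the threshold was SMAD7, at 58.8 to 93.9 in the paclitaxel-resistant and 37.3 to 51.5 in the docetaxel-resistant line, with a difference of 0.73 ± 0.16 (adjusted p = 0.0525). When 1 probe set per gene was tested, over 11963 genes, the same difference was called (adjusted p = 0.0484), and leaving out any single array other than paclitaxel-resistant replicate 2 ended that call (0.60 to 0.80, adjusted p up to 0.170). SMAD3 probe set 205396_at stood at -0.63 ± 0.14 (adjusted p = 0.0565), and all 4 SMAD3 probe sets were below 0, from -0.29 to -0.63. TGFBR2 stood at -0.83 ± 0.19 (208944_at, adjusted p = 0.0596) and -0.80 ± 0.20 (207334_s_at, adjusted p = 0.0831). Without sensitive replicate 1, and without sensitive replicate 2, both were called, with an adjusted p of 0.0143 to 0.0312. These intervals exclude 0 before adjustment, for 208944_at from -1.25 to -0.41. The TGFB1 probe sets went opposite ways, 203085_s_at at 0.77 (interval 0.28 to 1.26, adjusted p = 0.127) and 203084_at at -0.48 (-0.85 to -0.10, adjusted p = 0.244). For TGFB2 probe set 220407_s_at the difference between the lines was -0.10 (-0.54 to 0.34), for ID1 it was 0.32 (-0.23 to 0.86) and for ID3 it was 0.49 (-0.0038 to 0.98).

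**Figure D4:**
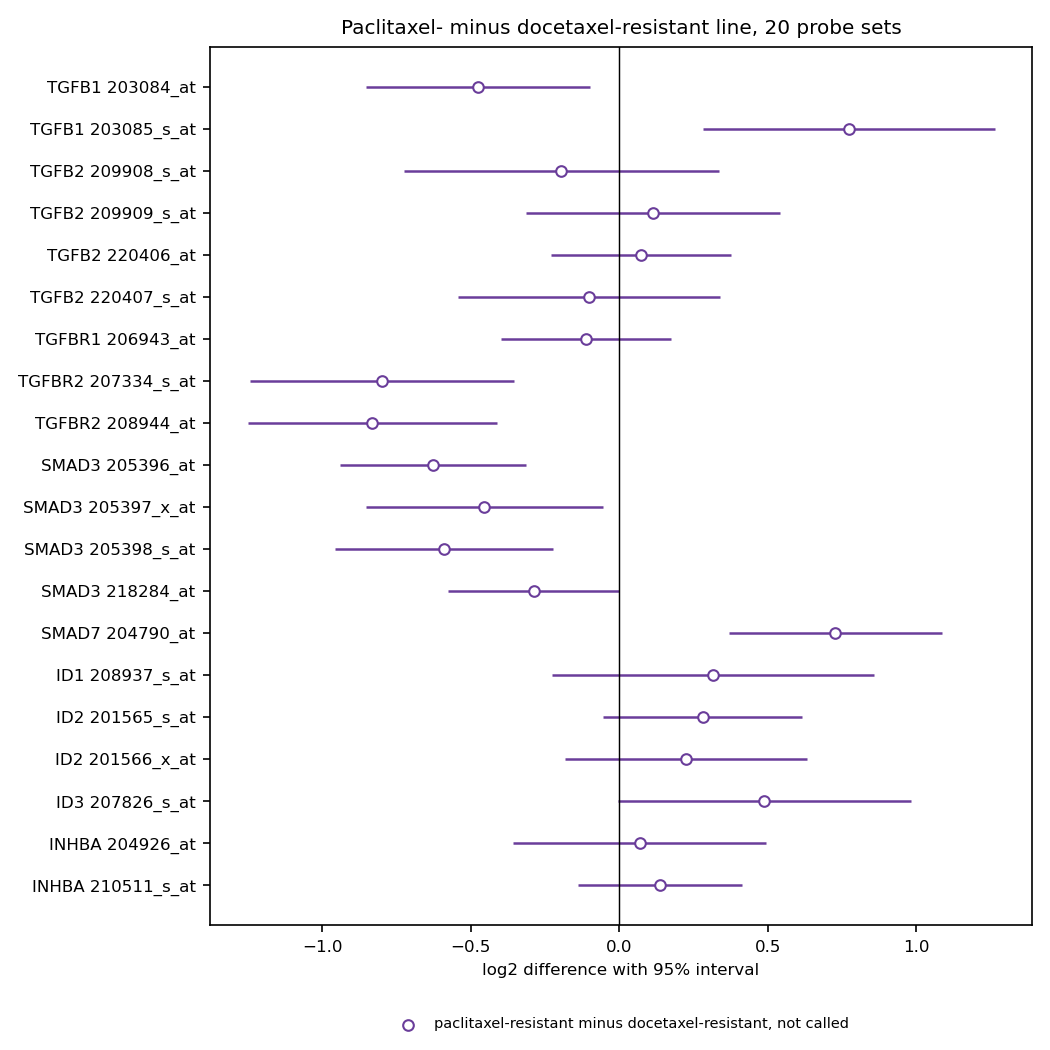
Log2 difference between the lines, paclitaxel-resistant minus docetaxel-resistant, with its 95% interval for the 20 probe sets, all open because none was called. The 4 SMAD3 and 2 TGFBR2 probe sets lie below 0, and SMAD7 lies above 0. The 2 TGFB1 probe sets lie on opposite sides.

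Other genes of the pathway were taken from lists by role, with 122 of 133 measured and 1 probe set kept per gene, that of the highest mean. The lists were chosen with earlier results of these data known, so the shares below are only a description. In the docetaxel-resistant line 22 rose, 17 fell and 83 were not called, a share of 32% against 21% of all 11963 genes (10.8% higher, 10.2% lower). In the paclitaxel-resistant line 29 rose, 20 fell and 73 were not called, a share of 40.2% against 21.6% (10.8% higher, 10.7% lower). The median differences were -0.07 and -0.03, beside -0.05 and -0.02 over all genes. Between the lines 5 were higher and 2 lower in paclitaxel-resistant than in docetaxel-resistant cells, a share of 5.74% against 1.96% (0.978% higher, 0.986% lower).

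Of 19 other ligands 3 fell and none rose in the docetaxel-resistant line, where 21% of all genes were called. In the paclitaxel-resistant line 3 fell and 1 rose, where 21.6% of all genes were called. The counts of this list and of each list below are to be read beside these shares. BMP4, a bone morphogenetic protein, averaged 76.2 in docetaxel-resistant, 58.1 in paclitaxel-resistant and 273 in sensitive cells and fell by 1.80 ± 0.15 (adjusted p = 1.53e-05) and 1.99 ± 0.15 (adjusted p = 8.84e-06). INHBB, the activin B subunit, averaged 250, 566 and 301 in the same order. It rose by 0.85 ± 0.18 in the paclitaxel-resistant line (adjusted p = 0.00506) and stood at -0.38 in the docetaxel-resistant line (adjusted p = 0.155). TGFB3, the third TGF-beta, averaged 23.1, 22.7 and 23.9 and was not called. GDF11, a relative of myostatin, averaged 42.9, 34.95 and 65.95 and fell by 0.62 ± 0.18 in the docetaxel-resistant line (adjusted p = 0.0336) and fell by 0.78 ± 0.18 in the paclitaxel-resistant line (adjusted p = 0.0106). INHA, the inhibin alpha subunit, averaged 24.8, 35.2 and 40.3 and fell by 0.57 ± 0.18 in the docetaxel-resistant line (adjusted p = 0.0430). BMP2 averaged 16.3, 10.2 and 39.3 and fell by 1.14 ± 0.35 in the paclitaxel-resistant line (adjusted p = 0.0365). The BMP4 calls and the paclitaxel call of INHBB held under every alternative run, and the calls of GDF11, INHA and BMP2 did not. For docetaxel, GDF11 was called in 8 of 19 alternatives, with an adjusted p of 0.279 at most, and INHA in 4 of 18, with 0.233 at most. The GDF11 call ended without docetaxel-resistant replicate 2 or 3 or sensitive replicate 2 or 3, and the INHA call without any single array other than sensitive replicate 3. For paclitaxel, BMP2 was called in 14 of 19, its call ending without paclitaxel-resistant replicate 2 or 3 or sensitive replicate 1 or 3 (adjusted p = 0.143 at most). GDF11 was called in 17 of 19 there, and a probe set with neither name ending _x_at nor _s_at gave -0.10 (adjusted p = 0.663). With each array left out in turn, 1 to 3 ligands fell and 0 to 1 rose in the docetaxel-resistant line, and without between-array normalization 1 fell and 1 rose.

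Of 11 other receptors and co-receptors 1 rose and 2 fell in each line. BAMBI, a decoy receptor without a kinase, averaged 54.1 in docetaxel-resistant, 53.2 in paclitaxel-resistant and 124 in sensitive cells and fell by 1.14 ± 0.13 (adjusted p = 0.000122) and fell by 1.105 ± 0.13 (adjusted p = 0.000141). ACVR1B, the activin type I receptor, fell by 0.63 ± 0.15 and 0.74 ± 0.15. When its probe sets were averaged the ACVR1B call ended in both lines, with an adjusted p of up to 0.212, and in the docetaxel comparison it also ended without docetaxel-resistant replicate 3 or the 2 arrays at the extremes of the median (-0.45, adjusted p = 0.119). TGFBR3, betaglycan, averaged 38.2, 33.9 and 17.2 and rose by 0.60 ± 0.15 (adjusted p = 0.0131) and 0.54 ± 0.15 (adjusted p = 0.0217). Its calls ended without sensitive replicate 3 in both comparisons (0.50 and 0.44), without docetaxel-resistant replicate 2 (0.56) or 3 (0.52) or the extreme pair (0.56), and without paclitaxel-resistant replicate 1 (0.47) or 2 (0.54). ACVR1, ACVR2A, ACVR2B, ACVRL1, AMHR2, BMPR1B, BMPR2 and ENG were not called in either line.

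Of 6 other SMADs SMAD2 and SMAD4 rose in both lines and the rest were not called. SMAD2, the partner of SMAD3, averaged 122 in docetaxel-resistant, 139 in paclitaxel-resistant and 52.2 in sensitive cells and rose by 0.82 ± 0.17 (adjusted p = 0.00563) and 1.14 ± 0.17 (adjusted p = 0.000784). Without the 2 arrays at the extremes of the median the docetaxel call of SMAD2 ended (0.60, adjusted p = 0.0646). SMAD4, the shared partner of receptor-activated SMADs, averaged 84.0, 87.7 and 36.2 and rose by 0.80 ± 0.21 (adjusted p = 0.0195) and 0.99 ± 0.21 (adjusted p = 0.00645). For SMAD4 a lower-level probe set gave 0.06 and -0.10 when names ending in _x_at or _s_at were left out. The docetaxel call of SMAD4 also ended without docetaxel-resistant replicate 2 or 3, and the adjusted p reached 0.0832, and without the extreme pair (0.43, adjusted p = 0.140). SMAD1, SMAD6 and SMAD9 stood between -0.36 and -0.03, and SMAD5 at 0.52 in both lines (adjusted p = 0.0602 and 0.0577).

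Among 20 regulators of the latent complex and of ligands outside the cell, 3 rose and 1 fell in the docetaxel-resistant line, and 3 rose and 4 fell in the paclitaxel-resistant line. LTBP3, which binds latent TGF-beta, averaged 42.9, 47.7 and 13.3 in docetaxel-resistant, paclitaxel-resistant and sensitive cells and rose by 0.93 ± 0.15 and 1.11 ± 0.15. TWSG1, an extracellular BMP modulator, rose by 1.31 ± 0.26 and 1.37 ± 0.26, and its docetaxel call ended without the same pair of arrays (adjusted p = 0.0514). FSTL1, a secreted BMP antagonist, averaged 738, 636 and 399 and rose by 0.80 ± 0.14 (adjusted p = 0.00222) and 0.64 ± 0.14 (adjusted p = 0.00764). LTBP2, a matrix protein, averaged 86.2, 60.4 and 106 and fell by 0.76 ± 0.15 in the paclitaxel-resistant line (adjusted p = 0.00399). The serine protease HTRA1 averaged 241, 236 and 680 and fell by 1.57 ± 0.15 and 1.48 ± 0.15 (adjusted p = 4.85e-05 and 6.28e-05).

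Among 25 intracellular regulators 7 rose and 3 fell in the docetaxel-resistant line, and 9 rose and 4 fell in the paclitaxel-resistant line. PMEPA1, a pathway target that limits SMAD signalling, averaged 28.1, 19.9 and 105 and fell by 1.503 ± 0.22 (adjusted p = 0.000654) and 1.75 ± 0.22 (adjusted p = 0.000237). RNF111, a ubiquitin ligase that degrades inhibitors of the pathway, rose by 1.43 ± 0.21 and 0.84 ± 0.21, and NEDD4L, a ligase for activated SMAD2 and SMAD3, by 0.89 ± 0.14 and 0.82 ± 0.14. TAB2, an adaptor of the kinase MAP3K7, rose by 0.75 ± 0.18 and 0.81 ± 0.18, and MAP3K7 itself by 0.86 ± 0.18 and 0.66 ± 0.18, with its docetaxel call ended without the extreme pair of arrays (adjusted p = 0.0531). SNX6, a sorting nexin, averaged 158, 241 and 90.1 and rose by 1.32 ± 0.31 in the paclitaxel-resistant line (adjusted p = 0.00922). With each array left out in turn, 3 to 8 and 5 to 9 of these regulators were called higher, and 1 to 4 and 1 to 3 lower.

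Genes known to be induced through TGF-beta receptors moved in both directions. Of 28, 7 rose and 7 fell in the docetaxel-resistant line, and 10 rose and 6 fell in the paclitaxel-resistant line. TGM2, tissue transglutaminase, averaged 363, 139 and 968 in docetaxel-resistant, paclitaxel-resistant and sensitive cells and fell by 1.49 ± 0.21 (adjusted p = 0.000526) and fell by 2.68 ± 0.21 (adjusted p = 9.56e-06). FN1, fibronectin, averaged 499, 968 and 1574 and fell by 1.69 ± 0.19 and 0.69 ± 0.19, and a probe set with neither name ending gave -0.14 in the docetaxel comparison (adjusted p = 0.601). TAGLN, the actin-binding transgelin, averaged 168, 70.5 and 35.9 and rose by 1.64 ± 0.16 and 0.67 ± 0.16. The kinase gene NUAK1 averaged 358, 403 and 157 and rose by 0.98 ± 0.12 and 1.24 ± 0.12. ANGPTL4, a secreted lipase inhibitor, averaged 74.4, 239 and 69.3 and rose in the paclitaxel-resistant line by 1.51 ± 0.13 (adjusted p = 1.99e-05). LOXL2, which cross-links collagen, rose there by 1.15 ± 0.16 (adjusted p = 0.000398).

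Among partners and relatives of the ID proteins, TCF12, an E protein, averaged 134, 86.2 and 34.6 in docetaxel-resistant, paclitaxel-resistant and sensitive cells and rose by 1.34 ± 0.23 (adjusted p = 0.00173) and 0.90 ± 0.23 (adjusted p = 0.0152). The paclitaxel call of TCF12 ended without paclitaxel-resistant replicate 1 or sensitive replicate 3, where the adjusted p reached 0.0652. ID4, the remaining ID gene, rose by 0.88 ± 0.20 in the paclitaxel-resistant line (adjusted p = 0.00754). In the docetaxel-resistant line it rose by 0.63 ± 0.20 (adjusted p = 0.0412), a call that ended without any of 5 single arrays, docetaxel-resistant replicate 2 or 3, paclitaxel-resistant replicate 3 or sensitive replicate 2 or 3, where the adjusted p reached 0.150, with an offset of 1 or 32 (adjusted p = 0.0606 and 0.0503), and without the extreme pair (adjusted p = 0.159). TCF3 and TCF4 were not called. Of 9 BMP target genes HEY1, a Notch and BMP target, fell by 2.16 ± 0.17 (adjusted p = 7.93e-06) in docetaxel-resistant cells and fell by 2.41 ± 0.17 (adjusted p = 5.13e-06) in paclitaxel-resistant cells. Its means were 53.7 in docetaxel-resistant, 41.3 in paclitaxel-resistant and 271 in sensitive cells. GATA2 rose by 0.61 ± 0.17 in the paclitaxel-resistant line (adjusted p = 0.0240), and its call ended without paclitaxel-resistant replicate 2 or 3 or sensitive replicate 1, where the adjusted p reached 0.0890, and with the mean of its probe sets (0.36, adjusted p = 0.163). The other BMP targets were not called.

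**Figure D5:**
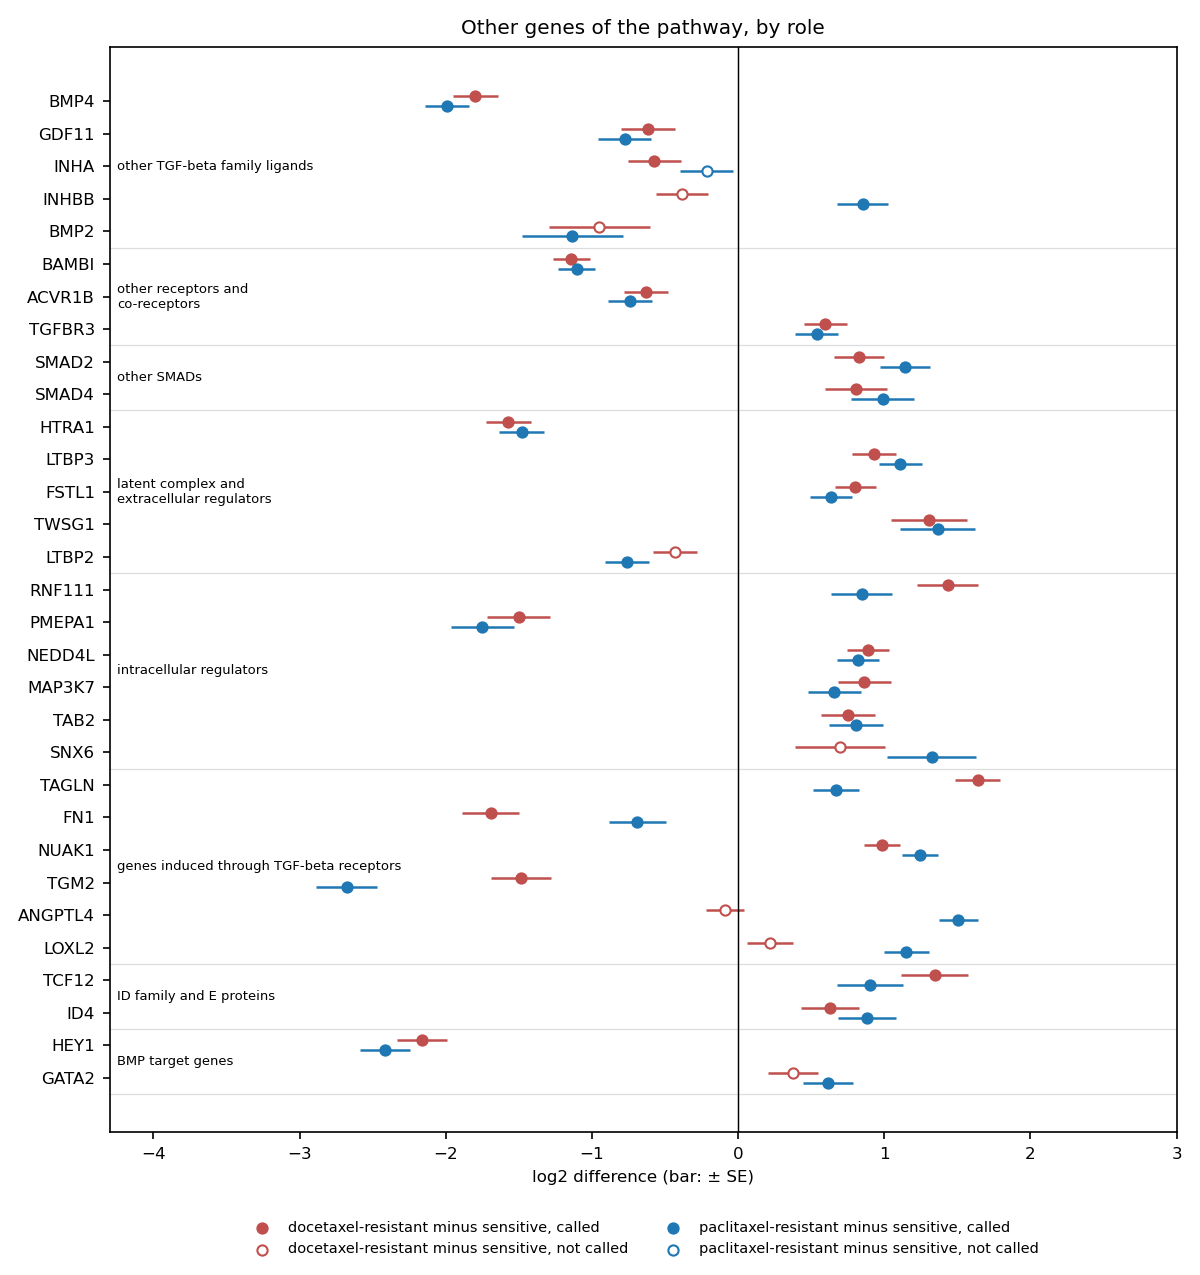
Log2 difference with its SE for genes of the other pathway lists named by a fixed rule, docetaxel-resistant minus sensitive in red and paclitaxel-resistant minus sensitive in blue, filled where called. BMP4, BAMBI, HTRA1, PMEPA1, FN1, TGM2 and HEY1 lie below 0 in both lines and SMAD2, SMAD4, LTBP3 and TWSG1 above 0 in both.

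The genes most like a member across the 9 arrays were found by Pearson's r, given as a description since the arrays fall into 3 groups. For ID3 they were XRCC6, a DNA end-binding protein (r = 0.986), and NDUFV2, a subunit of respiratory complex I (0.973). For SMAD3 they were GABARAPL2 (0.997) and PDXDC1 (0.993), and for TGFB2 GUCY1B1 (0.971) and GSE1 (0.963). TGFBR2 was most like RNF34 (0.966) and GLRX3 (0.964), and SMAD7 most like CDC42EP1 (0.987) and POLDIP3 (0.956). For TGFB1 they were ARHGDIA (0.974) and AGRN (0.965), and for ID1 GRSF1 (0.984) and SNRPD3 (0.966).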

How the data were processed

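Total RNA of 9 cultures was hybridised to Affymetrix HU133A arrays. The deposited values are linear signal intensity per probe set, which the authors made with Affymetrix Expression Console 1.1.2 and PLIER per the submitters' processing notes. For background correction and between-array normalization the settings were not given in the sources used here. Because the array medians differed by 0.27 on the log2 scale, over a limit of 0.2, log2(intensity + 16) was quantile normalized, which assumes like distributions. Control probe sets (68 of 22283) were left out. Of the 22215 human probe sets 19065 name 1 gene, 1043 several and 2107 none, and symbols were updated through RefSeq for 19053.

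All 9 arrays entered 1 limma model (limma 3.58.1, R 4.3.3) with 3 group means and 6 residual degrees of freedom. Tests were two-sided, with Benjamini-Hochberg adjustment over all 22215 probe sets, or 11963 genes for the other pathway lists, and a call at an adjusted p below 0.05. The fit was run on simulated data with independent probe sets, which cannot show the effect of array differences shared by many probe sets. The number of arrays limits the precision, with a median SE of 0.16. The members and lists were chosen with earlier results of these data known. All member probe sets were named, with up to 4 called genes of smallest adjusted p per other list and comparison, all receptors and SMADs, and the 2 genes of highest r per called member. Offset, normalization, low-level filter, model and left-out arrays were varied.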

Additional observations from a re-analysis of the deposited data

Results flagged for a closer look

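For 8 pathway genes the test of paclitaxel-resistant against docetaxel-resistant cells itself passed (limma over 11963 genes, adjusted p below 0.05, n = 3 per group, 1.96% of all genes called). SMAD7 averaged 80.1 in the paclitaxel-resistant and 44.04 in the docetaxel-resistant line, a log2 difference of 0.73 (adjusted p = 0.0484). INHBB averaged 566 and 250 in the same lines, a difference of 1.24 (adjusted p = 0.00447), and ANGPTL4 averaged 239 and 74.4, a difference of 1.60 (adjusted p = 0.000112). FN1 differed by 1.00 (968 and 499, adjusted p = 0.0244) and LOXL2 by 0.93 (1481 and 793, adjusted p = 0.0117). FSTL3, a secreted activin inhibitor, averaged 137 and 83.7, a difference of 0.74 (adjusted p = 0.0387). TAGLN stood at -0.97 (70.5 and 168, adjusted p = 0.00998) and TGM2 at -1.19 (139 and 363, adjusted p = 0.0152). The SMAD7 call ended without any single array other than paclitaxel-resistant replicate 2 (0.60 to 0.80, adjusted p up to 0.170). It also ended with an offset of 1, values as deposited or the replicate block. Over all probe sets SMAD7 was not called (adjusted p = 0.0525). The FSTL3 call ended without any single docetaxel- or paclitaxel-resistant array (0.60 to 0.86) and without sensitive replicate 3. It also ended with an offset of 1, median centring, values as deposited or the replicate block, and without the 2 arrays at the extremes of the median. FSTL3 was thus called in 7 of 19 alternatives, with an adjusted p of 0.142 at most. The TAGLN call ended without docetaxel-resistant replicate 1 or 2 (-0.88 and -0.90). The LOXL2 call ended without docetaxel-resistant replicate 1 or paclitaxel-resistant replicate 2 or 3, and the TGM2 call without docetaxel-resistant replicate 2 or paclitaxel-resistant replicate 1 or 2, with adjusted p values up to 0.0607 and 0.0768. Both calls also ended with an offset of 1 and with the mean of the probe sets (0.65 and -0.79, adjusted p = 0.0788 and 0.0677). The FN1 call, from a probe set with a name ending in _x_at, was not followed through the alternatives. The doses of the 2 drugs differ.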

How the results depend on the processing

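Of 1059 alternative values of the 20 probe sets, 1006 kept their direction if called and their side of the threshold, 30 lost and 23 gained a call, and none that was called changed sign. The filter at the median level gave no value for 7 low probe sets. Without each array in turn, 7 to 9, 6 to 10 and 0 to 2 of the 20 passed for docetaxel-resistant against sensitive, paclitaxel-resistant against sensitive and between the lines, with 6 without paclitaxel-resistant replicate 3. Between the lines, 3 were called with an offset of 32 or the median filter, 2 with only the 2 groups compared, and 1 with median centring, values as deposited, a robust trend, or without the 2 arrays at the extremes of the median. Leaving out each array, 2447 to 3970, 3070 to 4263 and 111 to 421 probe sets and 1638 to 2592, 1895 to 2703 and 78 to 282 genes were called. Without the 2 arrays at the extremes of the median 1970 probe sets and 1336 genes were called in the docetaxel comparison, and 182 and 137 between the lines. Between the lines an offset of 1 called 84 and 78, values as deposited 215 and 143, and the replicate block 214 probe sets and 139 genes. After group means were subtracted, same-numbered samples of different groups correlated at -0.40 to 0.29, with 3 of 9 above 0.1. Pairs of unlike number correlated at -0.43 to 0.43, with 7 of 18 above 0.1. These few pairs cannot settle whether samples of 1 number belong together. With the block 7, 8 and 0 members were called. Leaving out probe set names with _x_at or _s_at endings, 1431, 1495 and 110 genes were called, and 3 genes reversed on another probe set: TGFB2 in the docetaxel comparison (-0.066, adjusted p = 0.807), and TGFB1 (-0.24, adjusted p = 0.423) and SMAD4 (-0.10, adjusted p = 0.750) in the paclitaxel comparison. The cause was not tested. The alternatives for the other pathway genes were chosen after seeing the data.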
